A study of Mus musculus with 35 samples.

Results

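The 38 genes described here are interferon-stimulated genes (ISGs), including 6 genes of the 2′-5′-oligoadenylate synthetase (Oas) family, and all 38 were found by symbol among the 24421 genes of the count files. The list was put together from the known members of this programme, and in part it was chosen by a measured value, since the higher level of Oas2 with Cre in the MT194 and MT486 populations was already known. These 2 contrasts are therefore given as a description, without a test, for every gene of the list. The same holds for the other comparisons that use populations with MT194 or MT486. Counts of calls in them stand only in the closing section on the processing, and nothing is read from those counts. The list was also made with earlier results of these data known. Tests in the other comparisons are thus not on a list chosen independently of the data.

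The libraries came from immortalized mouse embryonic fibroblasts (iMEFs) with 1 floxed and 1 null allele of Nelfb (Nelfb flox/-), which encodes a subunit of the negative elongation factor NELF. The study asked how far mutants of NELFB support the functions of the protein in cells that lack the endogenous one. In the 20 population libraries, the cells carried a lentiviral vector that was empty (EV) or expressed wild-type NELFB (WT), MT194 (which, by the study, does not bind NELFA and NELFC), MT486 (which does not bind NELFE) or DMT, the double mutant with both changes, and RNA was taken 7 days after an adenovirus with Cre and GFP (Cre) or with GFP alone (GFP), with 2 libraries in each of the 10 groups. The other 15 libraries were single-cell clones kept after Ad-Cre, 3 in each of WT, MT194 and MT486 (pLenti vector) and of WT(N48) and Δ-C60 (pBabe vector, the latter with the C-terminal part of NELFB deleted). All cells thus derived from Nelfb flox/- iMEFs, in which the floxed allele was left in place in the GFP populations, while Cre was given to the Cre populations and to all clones. Every population had received an adenovirus, and within a construct the Cre and GFP groups differed in the virus as well as in the deletion, so that these cannot be told apart. Between 17969149 and 29080007 reads per population, and between 18413284 and 27816723 per clone, were counted on genes.

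Interferon-stimulated genes are switched on when type I or type III interferon binds its receptor and the kinases JAK1 and TYK2 phosphorylate STAT factors, among them STAT2, which join IRF9 to form the complex ISGF3. ISGF3 binds the interferon-stimulated response element (ISRE), a tandem repeat of GAAA-type half-sites in the promoters of these genes. Their products sense foreign RNA, degrade it or block its translation, and in fibroblasts many of them are kept at a low level by weak constant signalling.

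The promoters were examined for the ISRE because most of the 38 genes were higher with Cre in the populations, as described further on. Windows from 250 bases before to 50 bases after the start site (RefSeq, GRCm38.p6) were at hand for 29 of the 38 genes. The core motif GAAANNGAAA, searched on both strands, was found in a window of 15 of these 29 genes (51.7%), compared with 26 of 49 ISGs outside the 38 (53.1%) and with 1079 of all 27025 genes with a window (3.99%). For TTCNNNGAA, the interferon-gamma activated site (GAS), which reads the same on both strands, the shares were 20.7% of the 29 genes, 20.4% of the other ISGs and 9.55% of all genes. A match is a description of the letters in the window, and its absence says nothing of binding elsewhere. The 6 stretches below show matches in genes whose values are given in the text, each 50 bases long, written 5′ to 3′ on the strand of the gene, with 1 match to the core or to its reverse complement in capitals.
Oas3: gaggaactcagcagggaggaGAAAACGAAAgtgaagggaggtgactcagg
Oas1g: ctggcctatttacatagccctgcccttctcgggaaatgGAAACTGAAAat
Ifit1: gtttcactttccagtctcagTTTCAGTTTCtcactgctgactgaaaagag
Isg15: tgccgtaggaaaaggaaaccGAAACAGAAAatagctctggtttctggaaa
Bst2: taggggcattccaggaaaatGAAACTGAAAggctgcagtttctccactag
Rsad2: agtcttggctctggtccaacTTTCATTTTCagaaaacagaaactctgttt
These stretches lie at chr5:120777705-120777754 (Oas3, minus strand), chr5:120887614-120887663 (Oas1g, minus strand), chr19:34640784-34640833 (Ifit1, plus strand), chr4:156200855-156200904 (Isg15, minus strand), chr8:71537567-71537616 (Bst2, minus strand) and chr12:26456543-26456592 (Rsad2, minus strand). The match began 75 bases before the start site in Oas3, 12 in Oas1g, 85 in Ifit1, 66 in Isg15, 124 in Bst2 and 120 in Rsad2. Oas1a and Oas1g shared an identical run of 73 bases that began 58 and 56 bases before their start sites, so that the proximal promoters of this pair are near copies. In EV, the median log2 fold change with Cre over GFP was 1.18 for the 15 genes with the core, 0.75 for the 14 with a window without it and 1.07 for the 9 with no window. The 3 ranges overlapped, from 0.39 to 2.47, from 0.01 to 1.63 and from -0.43 to 2.90.

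Nelfb RNA, to which endogenous and ectopic transcripts both contribute, was examined first to check the labels. EV-GFP held 46.1 and 39.5 CPM (counts per 1e6 reads on genes, scaled by TMM factors) of Nelfb, and EV-Cre held 7.97 and 5.46. The populations with WT, MT194, MT486 or DMT kept between 60.5 and 208 CPM with Cre. Among the clones, the library labelled WT clone 2 held 109 CPM, but clones 1 and 3 of this label were at only 10.3 and 15.5 CPM, which goes against it, so that each comparison with this group rests on libraries of uncertain identity. MT486 clones 1 and 2 differed from each other by a chi-square of 5.06 per degree of freedom over genes, compared with at least 32.4 for every other pair of clones of a group. This was above sampling noise, but whether they were separate clones or 1 clone grown in 2 cultures cannot be told from it. They were counted as 2 replicates, and the count of calls is also given below with them as 1.

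The labelled cell type was checked against markers. Fibroblast genes were abundant, with a median of 13360 CPM for Fn1 (fibronectin) and of 5582 CPM for Col1a1 (type I collagen) over the 20 populations, whereas Thy1 was at or near 0, with 12 reads in all. Ptprc (CD45), carried by all leukocytes, had 12 reads and Adgre1, a macrophage gene, 3 reads over all 20 populations. The 6 macrophage markers summed to 6.10 and 9.27 CPM in EV-GFP, and to 9.42 and 14.2 in EV-Cre, with nearly all reads from Csf1r, Cd68 and Lyz2, and their part in the results was not tested. The 8 fibroblast markers tested moved with the groups as well. With Cre in EV, 6 of the 8 had a log2 difference below 0 (median -0.645), and S100a4 fell by 1.47 on the log2 scale (SE 0.24, adjusted p = 0.00146, edgeR quasi-likelihood test), from 52.2 ± 15.9 CPM (SD, n = 2) to 18.9 ± 1.49 CPM. Their median was 0.158 in WT and -0.385 in DMT, with 0 called, and their part in the results was not tested. Of the markers of dendritic, lymphoid, endothelial and epithelial cells (4 genes each), 0, 1, 0 and 1 passed the filter for low counts in the populations, and 0 of them were called in EV. Fewer cells of a type and less RNA per cell cannot be told apart in such bulk libraries.

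All 38 genes were expressed above the filter for low counts in the populations, over a wide range. Per kilobase of exon (union of exons, GENCODE vM21), the mean level over the 20 populations was highest for Bst2, an antiviral membrane tether, at 287 CPM per kb, and next for Isg15, a ubiquitin-like modifier, at 80.6 CPM per kb. The 6 Oas genes spanned from 0.22 CPM per kb for Oas3, the lowest of the list, to 11.5 CPM per kb for Oasl2, which ranked 17 of 38. Summed over the 38 genes, the level was from 1006 to 1997 CPM in the 10 populations with GFP (median 1443), and from 2264 to 3009 CPM in the 10 with Cre (median 2633). The sums of the libraries with Cre thus lay above all of those with GFP, a description that includes MT194 and MT486.

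**Figure D1:**
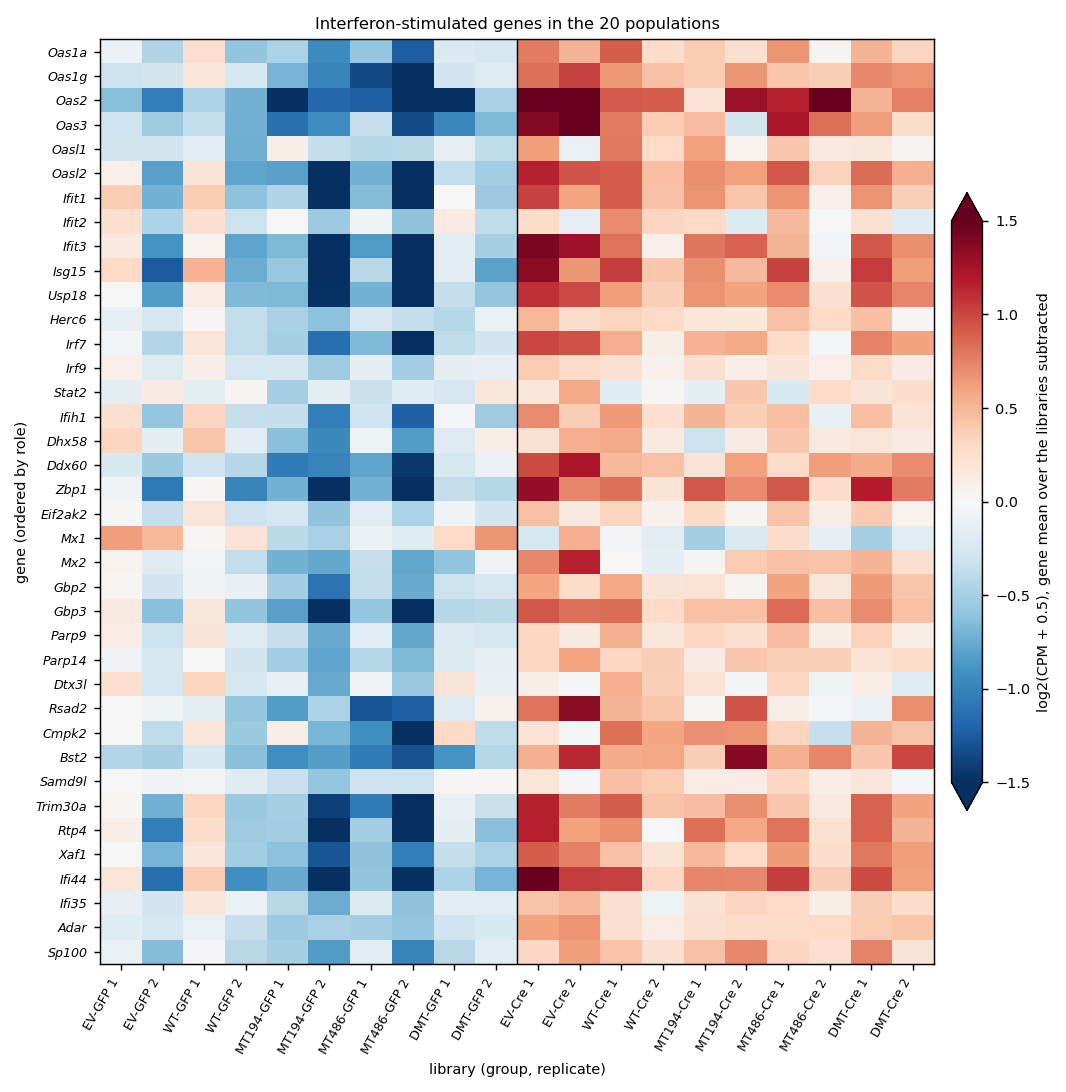
Level of each of the 38 genes (rows, ordered by role) in the 20 population libraries (columns, GFP on the left of the line and Cre on the right), as log2(CPM + 0.5) with the gene's mean over the 20 libraries subtracted. Most rows are blue with GFP and red with Cre in all constructs, with Mx1 the clearest exception, and experiment 1 is redder than experiment 2 in groups such as EV-GFP and WT-GFP.

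Of the 3 transcription factor genes, Irf7, which amplifies the interferon response, changed most. Irf7 stood at 27.3 and 20.7 CPM in EV-GFP and at 56.8 and 54.9 in EV-Cre, a 2.33-fold rise (log2 1.22, SE 0.30, adjusted p = 0.0177, edgeR quasi-likelihood test, Benjamini-Hochberg adjusted, n = 2 libraries per group). Both libraries with Cre were above both with GFP. Stat2, a subunit of ISGF3 and the highest of the 3 per kb (35.8 CPM per kb), was at 189 and 228 CPM in EV-GFP and at 237 and 310 in EV-Cre, a log2 difference of 0.39 (SE 0.24) with adjusted p = 0.316. In WT, Stat2 was at 188 and 215 CPM with GFP and at 184 and 211 with Cre, so that the groups overlapped. Irf9, the DNA-binding subunit of ISGF3, differed by a log2 value of 0.39 in EV (SE 0.17, adjusted p = 0.148).

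The Oas enzymes make 2′-5′-linked oligoadenylates, which set off the decay of RNA in infected cells. Oas1a, Oas1g, Oas2 and Oas3 lie side by side on mouse chromosome 5 (from 120730333 to 120907521, mm10), and Oasl1 and Oasl2 further along the same chromosome (from 114896936 to 114937915). Oas2 was at 1.97 and 1.37 CPM in EV-GFP and at 10.5 and 14.4 CPM in EV-Cre, the largest rise of the list in EV (7.45-fold, log2 2.90, SE 0.47, adjusted p = 0.00138, edgeR quasi-likelihood test, Benjamini-Hochberg adjusted). These values rest on 40 and 28 reads with GFP and on 234 and 305 reads with Cre. In WT, Oas2 was at 2.28 and 1.84 CPM with GFP and at 6.75 and 6.68 with Cre. The WT groups did not overlap either, but the log2 difference of 1.71 (SE 0.45) did not pass the test (adjusted p = 0.404), although it did in the fit with the experiment as a block (adjusted p = 0.0110).

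In DMT, Oas2 was at 0.78 and 2.23 CPM with GFP and at 4.93 and 5.94 with Cre, and rose 3.48-fold (log2 1.80, SE 0.46, adjusted p = 0.0234). In MT194 it was at 0.57 and 1.19 CPM with GFP and at 3.94 and 8.86 with Cre. In MT486 it was at 1.14 and 0.74 CPM with GFP and at 8.10 and 10.6 with Cre. Across EV, WT and DMT, every library with Cre lay above every library with GFP for Oas2. As a description, the same held with MT194 and MT486 included. The highest value was that of EV-Cre replicate 2.

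Oas3, the synthetase with 3 repeats of the catalytic unit, was likewise higher with Cre in EV, at a lower level than Oas2. It was at 0.88 and 0.68 CPM in EV-GFP (18 and 14 reads) and at 3.92 and 4.80 in EV-Cre (87 and 102 reads), and rose 5.53-fold (log2 2.47, SE 0.48, adjusted p = 0.00463). Oas1g rose 2.53-fold in EV (log2 1.34, SE 0.24, adjusted p = 0.00262), from 3.44 and 3.56 CPM to 8.24 and 9.46 CPM. In DMT, Oas3 rose 3.81-fold (adjusted p = 0.0283) and Oas1g 2.03-fold (adjusted p = 0.0131). Oasl2, an Oas-like protein and the member of the family with the highest level per kb, went from 65.8 and 35.2 CPM to 140 and 121 CPM in EV, a log2 difference of 1.37 that did not pass (SE 0.45, adjusted p = 0.0632). In the fit with the block it passed, with adjusted p = 0.000152. Of the 6 genes of the family, 3 rose in EV, 0 in WT and 3 in DMT (3.32%, 0.0217% and 2.65% of all genes), and none was called lower. With the block, 4 were called higher in EV, 3 in WT (Oas2, Oas3 and Oasl1) and 4 in DMT, beside 5.18%, 0.391% and 4.55% of all genes. Reads of Oas1a and Oas1g are uncertain, since only reads with a mapping quality of 30 or more were counted, which removes reads that fit both of a pair of near copies.

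**Figure D2:**
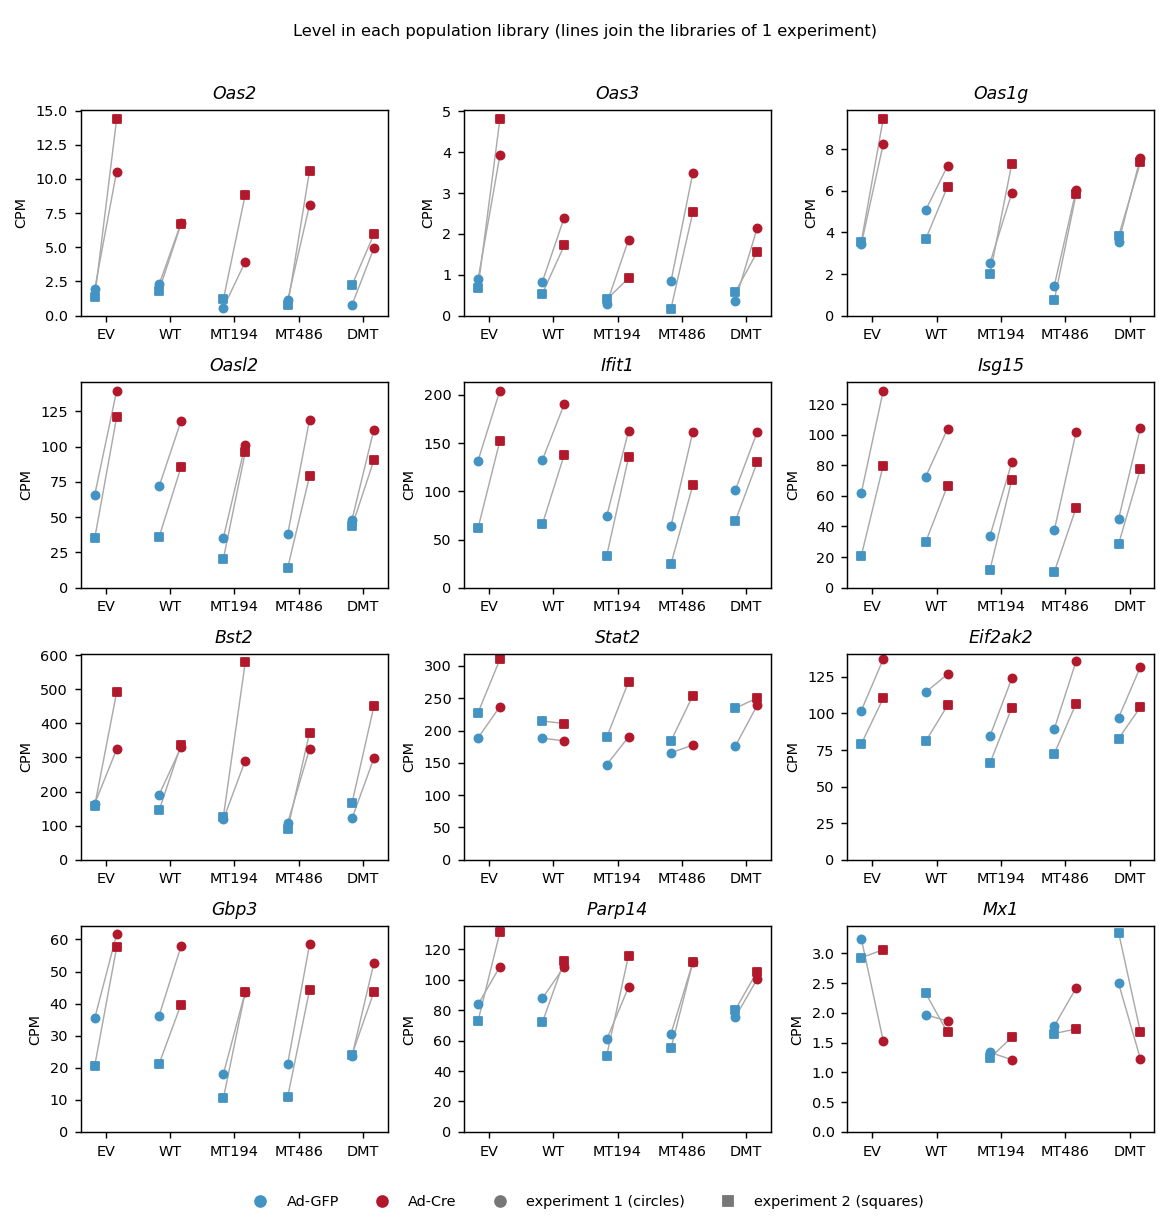
CPM of 12 of the genes in each population library, with 1 panel per gene, GFP in blue and Cre in red for each construct, experiment 1 as circles and experiment 2 as squares, and a line joining the 2 libraries of an experiment. Lines slope upwards for the Oas, Ifit1, Isg15, Bst2, Eif2ak2, Gbp3 and Parp14 panels in all 10 experiments, run nearly level for Stat2 in WT, and slope downwards for Mx1 in both DMT experiments.

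The Ifit proteins bind viral RNA and hold back its translation. Ifit1 was at 132 and 61.9 CPM in EV-GFP and at 204 and 152 in EV-Cre, a log2 difference of 0.88 (SE 0.51, adjusted p = 0.296). The spread between the 2 experiments was large beside this difference, with experiment 1 above experiment 2 in all 10 groups. Ifit3 rose 3.14-fold in EV (log2 1.65, SE 0.46, adjusted p = 0.0309), from 28.6 and 13.7 CPM to 69.3 and 63.3 CPM, but shares near-identical sequence with Ifit3b. Ifit2 overlapped between the groups, at 55.9 and 34.1 CPM with GFP and 56.9 and 43.0 with Cre (adjusted p = 0.832).

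Isg15 is conjugated to other proteins, and Usp18 removes it and restrains signalling from the interferon receptor. Isg15 was at 62.0 and 20.9 CPM in EV-GFP and at 129 and 79.9 in EV-Cre, a log2 difference of 1.33 (SE 0.68, adjusted p = 0.234). Within each experiment the Cre library was the higher one, and experiment 1 was the higher one in both groups. With the experiment as a block, Isg15 passed in EV (adjusted p = 0.000931). Usp18 rose 2.66-fold in EV (log2 1.41, SE 0.38, adjusted p = 0.0256), from 52.2 and 29.0 CPM to 112 and 104 CPM. It also rose in DMT (log2 1.32, SE 0.38, adjusted p = 0.0389).

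Among the 5 sensors of nucleic acid, Ddx60, a helicase, was the 1 that rose in EV in the fit without the block. It went from 4.08 and 3.17 CPM to 10.1 and 12.1 CPM (3.06-fold, log2 1.61, SE 0.24, adjusted p = 0.000962). Eif2ak2 (PKR), which halts translation on binding double-stranded RNA and had the highest level per kb of the 5 (20.1 CPM per kb), was at 102 and 79.2 CPM with GFP and at 137 and 110 with Cre (log2 0.45, SE 0.23, adjusted p = 0.224). Its groups did not overlap. Zbp1, a sensor of Z-form nucleic acid, was at 22.4 and 10.9 CPM with GFP and at 58.9 and 39.0 with Cre, just short of the threshold (log2 1.56, SE 0.49, adjusted p = 0.0534), and passed with the block (adjusted p = 3.185e-05). Dhx58 (LGP2) was at 30.6 and 22.0 CPM with GFP and at 28.6 and 35.6 with Cre, and overlapped.

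The 4 genes of antiviral GTPases did not move alike. Mx2 rose 2.10-fold in EV (log2 1.07, SE 0.24, adjusted p = 0.0106), from 7.72 and 6.39 CPM to 12.5 and 17.2 CPM. Mx1 had the lowest fold change of the list in each of the 5 constructs. It was at 3.24 and 2.93 CPM in EV-GFP and at 1.53 and 3.06 in EV-Cre (log2 -0.43, SE 0.31, adjusted p = 0.419). In DMT, Mx1 was at 2.50 and 3.35 CPM with GFP and at 1.22 and 1.67 with Cre, so that both Cre libraries were below both GFP libraries, and the difference just missed the threshold (log2 -1.02, SE 0.31, adjusted p = 0.0535) but passed with the block (adjusted p = 0.00855). Gbp3, a guanylate-binding protein, was at 35.4 and 20.7 CPM with GFP and at 61.6 and 57.5 with Cre in EV (log2 1.09, SE 0.36, adjusted p = 0.0651), and passed with the block (adjusted p = 0.000324).

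The ADP-ribosyltransferases Parp9 and Parp14 and the ubiquitin ligase Dtx3l, a partner of Parp9, stayed under the limit of 1 on the log2 scale. Parp14 was at 83.8 and 73.0 CPM in EV-GFP and at 109 and 131 in EV-Cre, a log2 difference of 0.61 (SE 0.15) with adjusted p = 0.0193, which passed in p but not in size. Exons of Parp9 and Dtx3l overlap on chromosome 16 (Parp9 from 35938470 to 35972605, Dtx3l from 35926511 to 35939151), and which strand was used in counting is not given in the sources used here, so their reads may not be fully separate. Dtx3l had a log2 difference of 0.01 in EV.

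Among the 11 other effectors, Bst2, Rsad2 and Xaf1 rose in EV. Bst2 went from 165 and 159 CPM to 324 and 491 CPM (2.52-fold, log2 1.33, SE 0.31, adjusted p = 0.0130), and rose 2.59-fold in DMT (adjusted p = 0.0126). Rsad2 (viperin), which makes a chain terminator of viral RNA synthesis, went from 13.0 and 12.5 CPM to 23.4 and 34.3 CPM (2.26-fold, adjusted p = 0.0259). Its neighbour on chromosome 12, Cmpk2, which supplies the substrate of viperin, was at 5.01 and 3.75 CPM with GFP and at 5.95 and 4.99 with Cre (log2 0.32, SE 0.38, adjusted p = 0.654). Adar, which edits adenosines in double-stranded RNA, had the smallest adjusted p of the list in EV (0.00042) with a log2 difference of 0.86 (SE 0.12), from 130 and 123 CPM to 224 and 235 CPM. Its difference was under 1, so it was not counted as called.

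**Figure D3:**
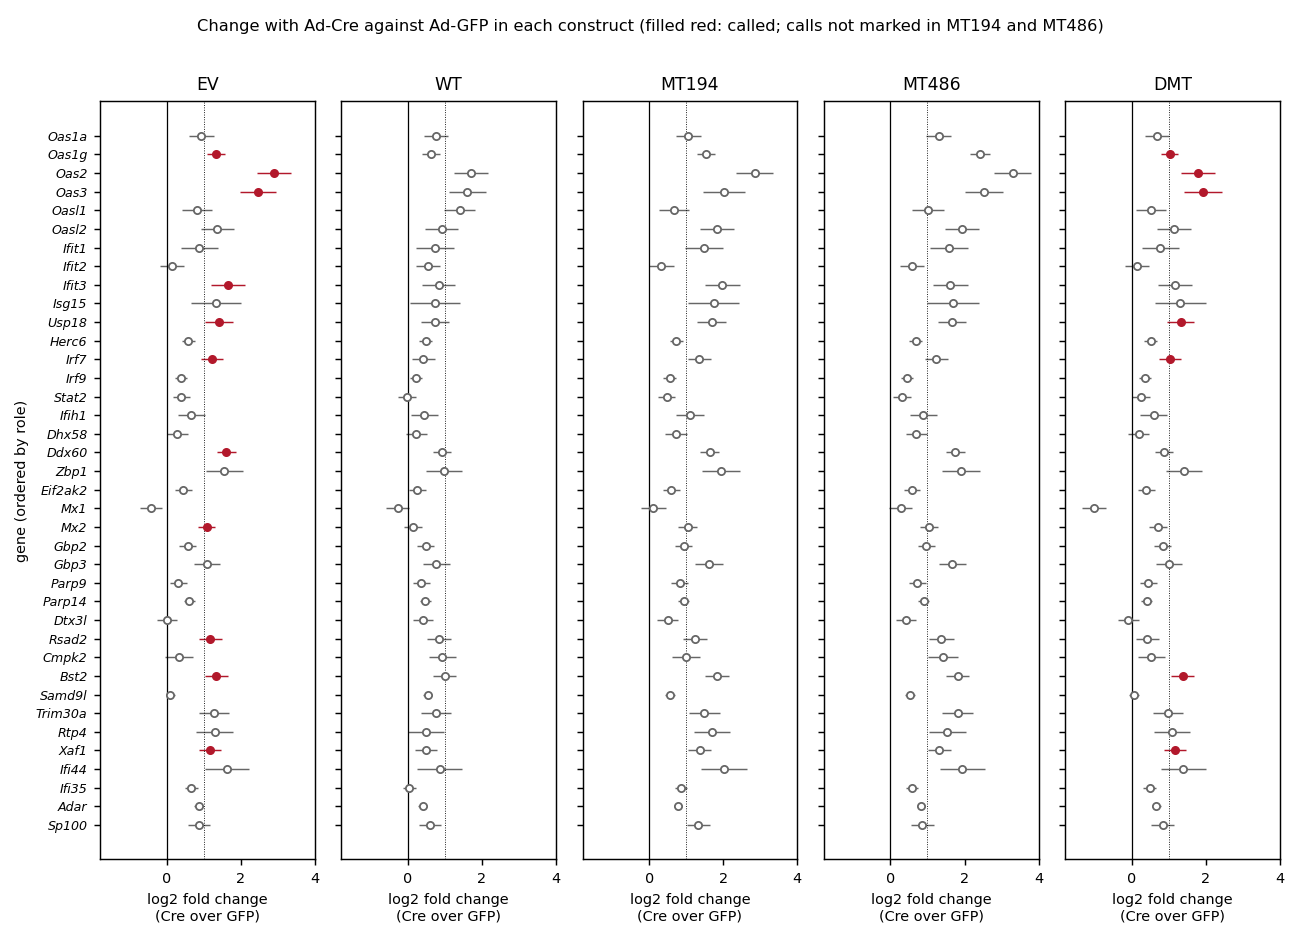
Log2 fold change of Cre over GFP for each of the 38 genes (rows, ordered by role) in each of the 5 constructs (panels), with bars of 1 standard error, and with filled red points in the EV, WT and DMT panels for genes at an adjusted p under 0.05 and over 1 on the log2 scale. The points lie to the right of 0 for nearly all genes in all panels. In the fit without a block for the experiment, 11 are filled in EV, 0 in WT and 7 in DMT. Calls are not marked in MT194 and MT486, which are a description.

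Taken as a list, the ISGs were higher with Cre than with GFP in EV. Genes counted as called had an adjusted p under 0.05 together with a log2 fold change beyond 1 in either direction. The test was the edgeR quasi-likelihood test, Benjamini-Hochberg adjusted over the 13805 genes tested. The main fit had no term for the experiment, so the difference between experiments stayed in its spread. Counts with the experiment as a block are therefore given as well. In EV, 11 of the 38 were called higher and 0 lower, beside 3.32% of all genes called higher and 3.33% lower. The 11 were Bst2, Ddx60, Ifit3, Irf7, Mx2, Oas1g, Oas2, Oas3, Rsad2, Usp18 and Xaf1, and 4 more, Herc6, Parp14, Ifi35 and Adar, passed in p with a smaller fold change. The median log2 fold change of the list was 0.91, with that of all genes near 0. In 32 of the 38, both Cre libraries lay above both GFP libraries, compared with 24.5% of all genes. The experiment as a block brought the count to 18 higher, beside 5.18% of all genes, by adding Oasl2, Isg15, Zbp1, Gbp3, Trim30a, Rtp4 and Ifi44. Without the block, it was 7 without EV-Cre replicate 1, 4 without EV-Cre replicate 2, 3 without EV-GFP replicate 2, and 4 when the 4 libraries were fitted alone. The number of all genes called in both directions was lower in these fits too, at 719, 501, 550 and 275 against 918 of 13805.

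With wild-type NELFB added back, 0 of 38 were called in either direction with Cre (0.0217% of all genes were called higher and 0 lower), and 13 were higher at an unadjusted p under 0.05 (3.11% of all genes). DESeq2 also called 0. The block gave 4 higher, namely Oas2, Oas3, Oasl1 and Zbp1, beside 0.391% of all genes. The median of the list was still above 0, at a log2 value of 0.57, or 0.88 without WT-GFP replicate 1. In 25 of the 38, both Cre libraries lay above both GFP libraries (18.7% of all genes), and in 1, Mx1, they lay below (19.4% of all genes).

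In DMT, 7 of 38 were called higher and 0 lower, beside 2.65% and 2.70% of all genes. These were Bst2, Irf7, Oas1g, Oas2, Oas3, Usp18 and Xaf1, each of which was also called in EV. The 2 comparisons share no library, but they come from the same 2 experiments and use 1 estimate of spread, so that they are not independent. The median log2 fold change was 0.75, and 33 of the 38 were higher without overlap (24.0% of all genes), with 1, Mx1, lower without overlap (24.2%). The block gave 13 higher and 1 lower, Mx1, beside 4.55% and 4.27% of all genes. The count rested on all 4 libraries, since it was 1 without DMT-Cre replicate 1, 0 without DMT-Cre replicate 2, 0 without DMT-GFP replicate 1 and 2 without DMT-GFP replicate 2. Over all genes, 509, 471, 540 and 372 were called in these fits, against 739 with all libraries.

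For MT194 and MT486, where the level of Oas2 was known when the list was made, the values are given without a test. The median log2 fold change of the list was 1.18 in MT194 and 1.27 in MT486. Both Cre libraries lay above both GFP libraries for 35 of the 38 in each, against 16.7% and 18.0% of all genes. Oas2 had the highest fold change in both, at a log2 value of 2.85 in MT194 and 3.30 in MT486.

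The replicate number marked 1 of 2 independent experiments, and the members were also compared within each. In EV, 35 of 38 were higher with Cre in experiment 1 and 38 in experiment 2. The corresponding numbers were 36 and 36 in WT, 37 and 38 in MT194, 38 and 38 in MT486, and 36 and 35 in DMT. Over all genes tested, between 47.5% and 51.5% were higher with Cre. The median log2 ratio of the list ranged from 0.48 in WT experiment 1 to 1.38 in MT194 experiment 2. The 10 pairs of libraries include those of MT194 and MT486, so that a count over them is a description. Of the 38 genes, 33 were higher with Cre in all 10, Dhx58 and Samd9l in 9, Stat2 in 8, Dtx3l in 7 and Mx1 in 4. How many of all genes were higher in all 10 was not counted.

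**Figure D4:**
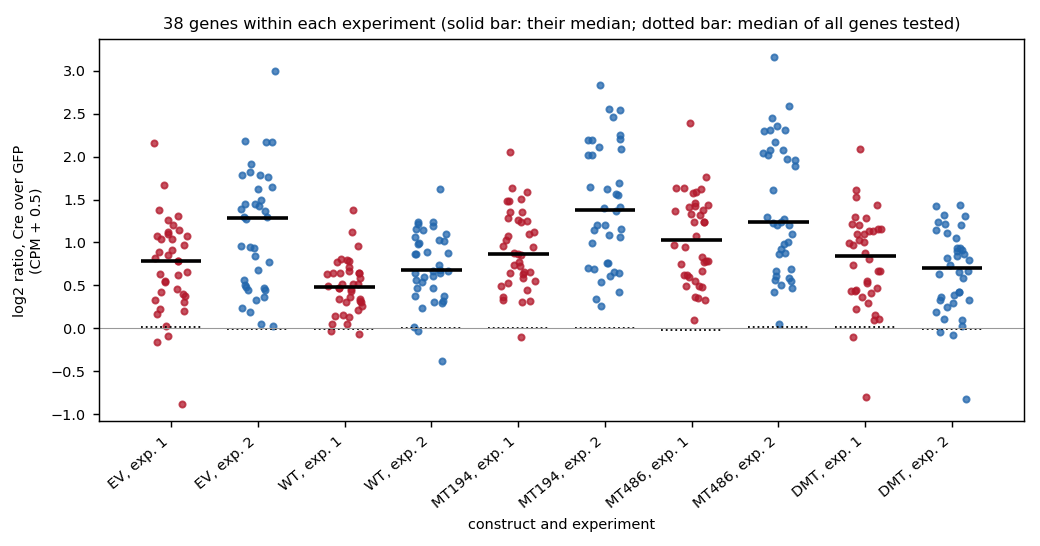
Log2 ratio of Cre over GFP (CPM + 0.5) for each of the 38 genes (points) within each experiment of each construct (red, experiment 1; blue, experiment 2), with the median of the 38 as a solid bar and the median of all genes tested as a dotted bar. The solid bars lie between 0.48 and 1.38, and the dotted bars lie close to 0.

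The level also differed between the experiments, in the same direction for most of the genes. In EV-GFP and in WT-GFP, 36 of the 38 were lower in experiment 2 than in experiment 1, with median log2 differences of -0.38 and -0.52. In DMT-GFP 20 of 38 were lower and the median was -0.01. Across all genes, 49.2% to 52.8% were lower in experiment 2 in each of the 10 groups. The part that this difference has in the Cre contrasts was not tested beyond the block, since each construct had 1 Cre and 1 GFP library per experiment. Reads on no gene were 13.9% and 17.7% in experiments 1 and 2 of EV-GFP and 14.2% and 19.9% in DMT-GFP, but 15.8% and 15.6% in DMT-Cre. Summed fibroblast markers were at 21670 and 31260 CPM in EV-GFP and at 22230 and 31940 in DMT-GFP. The part of these values was not tested.

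Whether added NELFB changed the ISGs in cells treated with Cre was asked by comparing each construct with EV-Cre, and these 4 comparisons share the EV-Cre libraries. In WT-Cre, 1 of 38 was called, Mx2, which was lower (2.01% of all genes were called lower and 2.19% higher). Mx2 was at 12.5 and 17.2 CPM in EV-Cre and at 7.41 and 6.68 in WT-Cre, a decrease to 0.475 of the level (SE 0.24 on the log2 scale, adjusted p = 0.0165). This call was lost without EV-Cre replicate 2, without either WT-Cre library, and when the 4 libraries were fitted alone. With the block Oas3 was called lower as well, beside 4.85% of all genes. Adar, at 174 and 159 CPM in WT-Cre, was lower than in EV-Cre with adjusted p = 0.0273 but a log2 difference of only -0.46 (SE 0.12). The median log2 difference of the 8 fibroblast markers from EV-Cre was 0.525 with WT and 0.287 with DMT. As a description, it was 0.532 with MT194 and 0.319 with MT486. S100a4 was called higher in WT, beside 2.19% of all genes. The 3 macrophage markers tested had medians of -0.702 with WT and -0.294 with DMT, with 0 called. Their medians were -0.699 with MT194 and -0.587 with MT486, as a description. The part of these markers in the results was not tested.

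In DMT-Cre, 0 of 38 were called in either direction relative to EV-Cre, beside 0.00724% of all genes. At an unadjusted p under 0.05, 0 were higher and 4 lower (1.36% of all genes lower), and DESeq2 and the block also called 0. Medians of the list were -0.29 in WT and -0.22 in DMT on the log2 scale and, as a description, -0.33 in MT194 and -0.35 in MT486. Rsad2 had 23.4 and 34.3 CPM in EV-Cre and 13.9 and 13.0 in MT486-Cre, without overlap (log2 -1.10).

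Relative to WT-Cre, 0 of 38 were called in DMT-Cre, beside 1.70% of all genes in both directions. The list had 1 gene lower and 0 higher at an unadjusted p under 0.05 (8.08% of all genes lower), and DESeq2 called 0. The median of the list was 0.04 on the log2 scale in DMT-Cre and, as a description, -0.04 in MT194-Cre and -0.01 in MT486-Cre. Among genes with a mean of at least 50 reads, the largest absolute differences were those of Dhx58 for MT194, Cmpk2 for MT486 and Ifit2 for DMT. Dhx58 was at 36.1 and 27.0 CPM in WT-Cre and at 19.3 and 26.5 in MT194-Cre. Cmpk2 was at 9.35 and 7.87 CPM in WT-Cre and at 6.40 and 3.86 in MT486-Cre. Ifit2 was at 77.1 and 59.1 CPM in WT-Cre and at 55.3 and 41.1 in DMT-Cre, a difference that did not pass the test.

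With GFP, and so with the floxed allele in place, 0 of 38 were called in WT or DMT relative to EV-GFP, where 0 of all genes were called. At an unadjusted p under 0.05, 0 were lower and 0 higher in both, beside 0.333% and 0.601% of all genes lower, and DESeq2 called 0. These comparisons share the EV-GFP libraries. The median log2 difference of the list was 0.05 in WT-GFP and -0.06 in DMT-GFP and, as a description, -0.60 in both MT194-GFP and MT486-GFP. Oas1g was at 3.44 and 3.56 CPM in EV-GFP, at 5.07 and 3.67 in WT-GFP and at 1.43 and 0.74 in MT486-GFP, so that the 2 MT486 libraries were the lowest of these. Gbp3 was at 35.4 and 20.7 CPM in EV-GFP and at 18.0 and 10.4 in MT194-GFP, without overlap. Ddx60 was at 4.08 and 3.17 CPM in EV-GFP and at 4.05 and 4.57 in DMT-GFP, which overlapped.

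The size of the change with Cre was then compared between constructs as an interaction. The test is given for the 3 pairs among EV, WT and DMT, since MT194 and MT486 were used in choosing the list. None of the 38 differed at an adjusted p under 0.05 in these 3 pairs, and the smallest adjusted p was 0.250 (Adar, WT against EV). For WT against EV, 0 of 38 were called, beside 0.594% of all genes, 1 was higher and 4 were lower at an unadjusted p under 0.05 (6.24% and 5.76% of all genes), and DESeq2 and the block also gave 0. For DMT against EV, 0 were called as well, beside 0.00724% of all genes, and 1 was lower at an unadjusted p under 0.05 (0.681% of all genes). For DMT against WT, 0 of 38 were called, where 17 of 13805 genes were, and 1 had an unadjusted p under 0.05, where 1063 of all genes did. Oas2 had the largest difference for WT against EV, with a log2 value of -1.19 for the change in WT minus that in EV (SE 0.64, adjusted p = 0.513). The median of the differences was -0.34 for WT and -0.14 for DMT relative to EV and, as a description, 0.29 for MT194 and 0.30 for MT486, with the EV libraries shared by all 4. Without EV-GFP replicate 1, the median for MT194 was -0.05, and without WT-GFP replicate 1 that for WT was 0.01. The median for MT486 was 0.72 without MT486-GFP replicate 1, and that for DMT was -0.41 without EV-GFP replicate 1.

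Medians over the other 6 pairs of constructs, which share libraries with each other, are a description. The change in MT194 was larger than that in WT by a median log2 difference of 0.694, that in MT486 by 0.553 and that in DMT by 0.226, and it was smaller than in WT for 2, 1 and 11 of the 38 genes. The median change in WT was larger without WT-GFP replicate 1, as given above, so that these differences from WT depend on that library. Relative to WT-Cre, the medians of the list were -0.04 in MT194-Cre, -0.01 in MT486-Cre and 0.04 in DMT-Cre. Relative to EV-GFP, they were -0.60 in both MT194-GFP and MT486-GFP, -0.06 in DMT-GFP and 0.05 in WT-GFP. A larger change with MT194 or MT486 thus did not mean a higher level than in WT-Cre. The change in DMT had a median difference of -0.483 from that in MT194 and of -0.459 from that in MT486, and was the smaller one for all 38 genes in both. MT486 and MT194 differed by a median of -0.0165.

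In the stable clones, 35 of the 38 passed the filter for low counts, and Oas2, Oas3 and Mx1 did not. The summed level of the 38 was below that of every population in 13 of 15 clones, at 261 to 757 CPM, and was 1160 and 1231 CPM in MT486 clones 1 and 2. Populations and clones were scaled separately, so that this is a setting side by side and not a test. The third MT486 clone was at 380 CPM. MT194 clone 2 was at 757 CPM against 436 and 345 for the other 2 clones with MT194, and the library labelled WT clone 1 at 592 against 338 and 488. The WT(N48) clones were at 261, 334 and 445 CPM and the Δ-C60 clones at 387, 389 and 327.

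Bst2 was likewise highest in MT486 clones 1 and 2. It was at 167, 168 and 10.5 CPM in the MT486 clones, at 12.8, 31.6 and 9.36 in MT194, at 3.85, 6.05 and 6.27 in WT(N48), at 5.21, 4.76 and 9.97 in Δ-C60 and at 48.6, 11.0 and 21.8 in the libraries labelled WT. Oas2 had 28 and 42 reads in MT486 clones 1 and 2, at most 3 in every other clone, and 0 in 10 of the 15. Oas1a, at 12.1 and 13.5 CPM in MT486 clones 1 and 2 and 6.55 in MT194 clone 2, was at 3.76 or lower in the other 12. In Δ-C60 clone 2, Gbp2 and Gbp3 (50.2 and 18.7 CPM) were the highest of all 15 clones while Samd9l and Parp14 were at 0.75 and 0.79 CPM, values picked out after they had been seen.

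**Figure D5:**
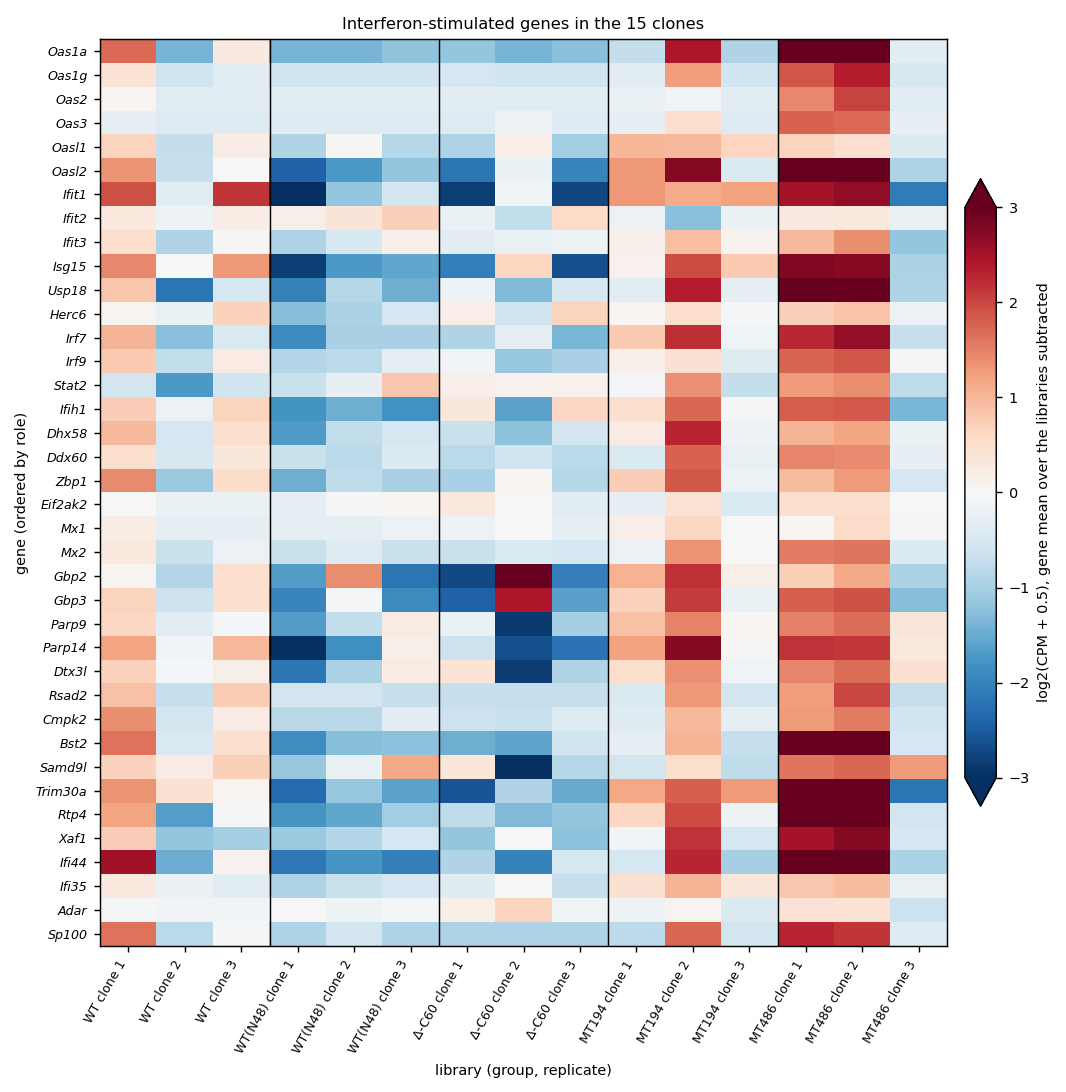
Level of each of the 38 genes (rows, ordered by role) in the 15 clones (columns, lines between groups), as log2(CPM + 0.5) with the gene's mean over the 15 libraries subtracted. MT486 clones 1 and 2 and MT194 clone 2 are red for most genes, the WT(N48) and Δ-C60 clones are mostly blue, and the 3 clones of MT486, and of MT194, differ widely from each other.

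The clone comparisons share the WT(N48) clones. Relative to these, 0 of the 35 genes tested were called in Δ-C60, the comparison within 1 vector, where 0 of 13223 genes were called. At an unadjusted p under 0.05, 2 of the 35 were higher and 0 lower (7.19% of all genes higher), and DESeq2 called 0. In 0 of the 35 did the groups not overlap, compared with 5.84% of all genes higher and 5.63% lower. The median log2 fold change of the 35 was 0.30. Herc6, a ligase for Isg15, had the smallest p in this comparison, with 4.51, 5.85 and 8.06 CPM in WT(N48) and 13.5, 7.64 and 19.0 in Δ-C60, which overlapped (log2 1.12, SE 0.39, adjusted p = 0.295). Ifi44, which had the largest fitted change among members with enough reads, was at 0.68, 0.037 and 1.04 CPM in Δ-C60 and at 0 to 0.15 in WT(N48), too few reads for a ratio.

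For MT194 and MT486 clones, the vector also differed from that of WT(N48), and vector and construct cannot be told apart. In MT194, 1 of 35 was called higher, Ifi35, beside 1.75% of all genes, and 0 lower, beside 1.57%. At an unadjusted p under 0.05, 21 were higher and 1 lower (12.5% and 13.4% of all genes), and DESeq2 called 13 higher, beside 3.83% of all genes. Ifi35 was at 19.4, 28.8 and 18.4 CPM in MT194 and at 7.15, 8.69 and 9.84 in WT(N48), and rose 2.59-fold without overlap (log2 1.37, SE 0.33, adjusted p = 0.0316, edgeR quasi-likelihood test, Benjamini-Hochberg adjusted, n = 3 clones per group). The call was lost without any 1 of the 3 MT194 clones or without WT(N48) clone 1 or 2, and 2 of the 35 were called without WT(N48) clone 3, where 909 of all 13223 genes were. The median of the 35 was a log2 value of 2.65, and 1.45 without MT194 clone 2. In 18 of the 35 all MT194 clones lay above all WT(N48) clones, compared with 15.6% of all genes.

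In MT486, 0 of 35 were called relative to WT(N48), with 0.113% of all genes called higher and 0.182% lower, although the median log2 fold change was 3.35. At an unadjusted p under 0.05, 26 were higher and 0 lower (7.91% of all genes higher), and DESeq2 called 16, beside 1.38% of all genes. In 20 of the 35 all MT486 clones lay above all WT(N48) clones, compared with 13.8% of all genes. Bst2 had the smallest adjusted p, 0.0555 (log2 4.41, SE 0.90). Without MT486 clone 3, the low one, 6 of the 35 were called, where 48 of all 13223 genes were. That fit rested on clones 1 and 2 alone, which may be 1 clone grown in 2 cultures, so its calls may lack replication. With clone 3 kept, the count stayed at 0 when clones 1 and 2 were taken as 1 replicate. Ifi44 had the largest fold change, but was at 37.9, 42.5 and 0.64 CPM in MT486, and had 0 to 0.15 CPM in WT(N48), too few reads for a ratio.

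Between WT(N48) and the libraries labelled WT, 0 of 35 were called, beside 0.991% of all genes higher and 0.552% lower in WT(N48). At an unadjusted p under 0.05, 12 were lower in WT(N48) and 0 higher (10.3% of all genes lower), and DESeq2 called 7 lower, beside 2.03% of all genes. In 9 of the 35 all WT(N48) clones lay below all libraries labelled WT, compared with 15.9% of all genes. The median was a log2 value of -1.90. Isg15 was at 17.7, 6.22 and 16.2 CPM in the libraries labelled WT and at 0.46, 1.55 and 1.79 in WT(N48), without overlap (log2 -3.39, SE 1.13, adjusted p = 0.113). Ifi44 was at 12.2, 0.29 and 1.93 CPM in the libraries labelled WT. All 8 fibroblast markers tested had a higher level in WT(N48) than in the libraries labelled WT (median log2 1.16, 0 called), opposite to the ISGs. Relative to WT(N48), their medians were -0.502 in Δ-C60, -0.299 in MT194 and -0.475 in MT486, with 0 called, and their part in the clone results was not tested. The vectors differed here as well, and 2 of the 3 libraries labelled WT held little Nelfb RNA.

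The rest of the interferon pathway was examined with lists of ligands, receptors, sensors and other ISGs. The 21 interferon genes, the ligands, were all below the filter. Ifnb1, the interferon-beta gene of fibroblasts, had 82 reads over the 20 populations and at most 11 in any 1 of them. Summed over the 21 genes, EV-GFP had 1 and 5 reads and EV-Cre 21 and 14. In WT the sums were 5 and 2 reads with GFP and 10 and 3 with Cre, and in DMT 7 and 13 with GFP and 12 and 21 with Cre. In MT194 they were 11 and 7 with GFP and 5 and 8 with Cre, and in MT486 13 and 3 with GFP and 10 and 16 with Cre. The groups overlapped in each construct other than EV, at counts too low for a comparison of levels.

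Of the 13 genes for interferon receptors, JAK kinases, STAT factors and their inhibitors, 0 were called with Cre in EV, WT or DMT. The list had a median log2 value of -0.22 in EV, against 0.91 for the 38 ISGs. Of the 21 tested genes for sensing of nucleic acids upstream of interferon, 1 was called in EV, Tmem173 (STING, an adaptor for sensing of cytosolic DNA), which fell by 1.22 on the log2 scale (SE 0.38, adjusted p = 0.0497, edgeR quasi-likelihood test, Benjamini-Hochberg adjusted). In DMT, 1 of the 21, Ikbke, a kinase of IRF factors, fell by 1.09 on the log2 scale (SE 0.19, adjusted p = 0.00301). In WT, 0 of the 21 were called. Over all genes, 3.33% were called lower in EV and 2.70% in DMT, so that 1 of 21 was near the background in both.

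Of 58 tested ISGs that are not among the 38, 12 rose with Cre in EV and 1 fell (3.32% and 3.33% of all genes), 0 were called in WT (0.0217% of all genes higher), and 5 rose and 1 fell in DMT (2.65% and 2.70%). Gbp4, another guanylate-binding protein, rose 4.75-fold in EV (log2 2.25, SE 0.28, adjusted p = 0.000240), from a mean of 2.18 ± 0.394 CPM (SD, n = 2) to 10.4 ± 2.18 CPM. Lgals3bp, a secreted glycoprotein, rose 3.27-fold in EV (adjusted p = 0.0226), from 407 ± 21.8 CPM to 1329 ± 434 CPM. Of the other genes of the Oas1 cluster, Oas1b and Oas1h rose in EV as well, by 2.10-fold and 8.42-fold, and Oas1c was not called. Oas1h rose from a mean of 0.196 CPM, a level of few reads, so that its fold is uncertain. Ifitm2, a membrane protein that hinders virus entry, fell by 1.00 on the log2 scale in EV (SE 0.20, adjusted p = 0.00457). Relative to EV-Cre, 2 of the 58 were called lower in WT-Cre, beside 2.01% of all genes, namely Gbp4 and Cd274 (PD-L1), which fell by 1.09 and 1.71 on the log2 scale (adjusted p = 0.0236 and 0.00963). As a description, Gbp4 was also lower in MT194-Cre and MT486-Cre, by 1.51 and 1.62 on the log2 scale. In DMT-Cre its log2 difference was -0.93, which was not called.

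In the clones, 6 of 49 tested genes of the same list were called higher in MT194 than in WT(N48), beside 1.75% of all genes, among them Helz2, Nlrc5, Nmi, Oas1b and Parp12. Nlrc5, an activator of MHC class I genes, rose 14.2-fold, from a mean of 2.38 to 34.3 CPM (log2 3.82, SE 0.73, adjusted p = 0.0161). Of 12 receptor, JAK and STAT genes tested, 1 was called higher in MT194, Socs3, an inhibitor of cytokine signalling (3.03-fold, adjusted p = 0.0385, edgeR quasi-likelihood test). Of 21 sensing genes, 2 were called higher, Tlr3 (6.46-fold, adjusted p = 0.041) and Trim25 (2.54-fold, adjusted p = 0.0359), and none was called lower in either list. In MT486, Helz2 was the 1 gene of the 49 called, beside 0.113% of all genes higher, and in Δ-C60 0 of the 49 were, where 0 of 13223 genes were. In WT(N48), Nlrc5 was called lower than in the libraries labelled WT (log2 -3.06, SE 0.71, adjusted p = 0.0454).

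Members were also compared in their pattern over the 20 populations, as the Pearson correlation of each gene's log2 CPM with the mean of the others, a description in which all points share libraries. It was 0.995 for Oasl2 and 0.994 for Gbp3, 0.871 for Oas2, 0.457 for Stat2 and -0.0044 for Mx1. Outside the 38, the 10 genes most like their mean among 13767 were Ddx58 (RIG-I, r = 0.983), Phf11d, Mndal, Irgm1, Apol9b, Ifi203, Apol9a, Iigp1, Parp12 and Slfn8 (r = 0.958). Ddx58 was at a mean of 132 ± 15.4 CPM (SD, n = 2) in EV-GFP and of 185 ± 2.67 CPM in EV-Cre, without overlap, a log2 difference of 0.48 that did not pass (SE 0.18, adjusted p = 0.101).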

How the data were processed

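Poly(A) RNA-seq libraries of 20 populations and 15 clones were analysed. The authors aligned 50-base single reads to mm10 with Bowtie2, kept mapping quality of 30 or more, and deposited HTSeq counts per gene (24421 genes). Versions and the strand setting are not given in the sources used here. Reads on no gene were left out (11.7% to 21.3% of the total in populations, 9.14% to 12.0% in clones).

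The 38 members and all lists were chosen with earlier results of these data known. Counts were fitted with edgeR 4.0.16 (quasi-likelihood test, TMM, filterByExpr) in R 4.3.3, populations and clones separately, with all groups sharing 1 estimate of spread, and p-values were Benjamini-Hochberg adjusted over all genes tested (13805 and 13223). A call needed an adjusted p under 0.05 together with a log2 fold change beyond 1 in either direction. Values of the libraries compared are given for Oas2, for the member of each role with the highest mean CPM (in every population in the plot of levels by library), and for the member with the largest change in each comparison among those called or, with none called, among those with a mean of at least 50 reads, beside others chosen after their values were seen. Alternatives were DESeq2 1.42.0, its size factors, no filter, a replicate block, leaving out each library, and, chosen after seeing the data, robust dispersions, the 2 groups fitted alone and MT486 clones 1 and 2 as 1 replicate. A count of 3, the limit that 0 reads allow, is 0.108 to 0.171 CPM in populations and 0.105 to 0.155 in clones, for counting error only. Whether clones of a group were independent infections is not stated, and p-values measure the spread between these libraries. The replicate number is the experiment in the study's account of the populations, and same-numbered libraries deviated together in 45 of 45 pairs of groups (median correlation 0.586), against 3 of 30 in clones. On simulated counts with 200 changed genes, 96.5% were recovered for EV, Cre over GFP, over 13636 genes. For MT486 over WT(N48) clones, 74% were recovered over 13086 genes. The changed genes had a mean of at least 50 reads and changes larger than the medians of the list in EV, WT and DMT. No difference between experiments was simulated, and recovery went by adjusted p alone. These shares therefore do not give the power for the list. Values of some genes of the lists are not reported here.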

Additional observations from a re-analysis of the deposited data

How the results depend on the processing

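Of 264 counts of called members under the alternatives, 218 stayed within 1.5 times the reported count. Most reported counts were 0 and mostly stayed at 0, so this share says little of the counts above 0. Each count above 0 moved in most fits that left out 1 library of its groups. Of 264 medians, 257 stayed within their limit, and none of the 4889 values of single members reversed. The cause of the differences was not tested. With the replicate block, which the paired experiments warrant, the counts were 18 in EV, 4 in WT and 14 in DMT for Cre over GFP, and 2 for WT-Cre relative to EV-Cre. Beside these and populations with MT194 or MT486, given further on, the block left each count within 1.5 times. In clones the replicate number does not pair libraries, and the block left 1, Ifi35, called in MT194. DESeq2 gave 13, 16 and 7 in the clones for MT194 and MT486 over WT(N48) and WT(N48) over WT (878, 385 and 649 of all 13223 genes in both directions). Without a filter on low counts, 1 was called in MT486 clones. With the libraries of the 2 groups alone, and so fewer degrees of freedom, the counts were 4 in EV, 0 for WT-Cre relative to EV-Cre and 2 for WT(N48) over WT clones. Leaving out 1 library at a time gave 3 to 9 in EV, 0 to 2 in DMT, 0 to 1 for WT-Cre relative to EV-Cre, 0 to 2 in MT194 clones and 0 to 6 in MT486 clones. Where this leaves 1 population in a group, that library is assumed to vary like the others. The 6 in MT486 clones rested on clones 1 and 2, which may be 1 clone grown in 2 cultures. The Cre contrasts of MT194 and MT486 were known when the list was made, and nothing is read from their counts or from others with these populations. Beside 14 and 12 (354 and 208 of all 13805 genes), they were 23 and 22 with the block (747 and 601 of all genes), 20 in MT486 with DESeq2 (364 of all genes), 0 and 1 with the 4 libraries alone, and 4 to 7 and 2 to 10 without 1 library. Relative to EV-Cre, the block gave 2 each for MT194-Cre and MT486-Cre (293 and 460 of all genes) and DESeq2 1 each, and for MT486-GFP relative to EV-GFP both gave 1. The 2 libraries per group limit all population results. Counts were low for genes such as Oas3, with under 20 reads in each EV-GFP library, while Isg15 and Ifit1 had larger standard errors in EV.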
